A study of Mus musculus with 4 samples.

Results

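The core circadian clock genes were examined in hippocampal RNA of wild-type (WT) mice and of mice carrying a knock-in (KI) of Lsd1. The 10 genes, Clock, Arntl, Npas2, Per1, Per2, Per3, Cry1, Cry2, Nr1d1 and Nr1d2, were taken by symbol as the core of the loop, by a rule that uses no measured value, though results of these data were already known when the set was named. All 10 were matched to an Ensembl identifier among the 26328 genes listed in at least 1 sample. LSD1, encoded by Kdm1a, is a histone demethylase, and in Lsd1 KI mice the serine that protein kinase C alpha (PKCα) phosphorylates is replaced by alanine on both alleles (Lsd1 SA/SA). There were 2 WT and 2 KI samples, all from male C57BL/6 hippocampus with no treatment named, and the KI is carried in every cell of the animal rather than in the hippocampus alone. The study used littermates of 8 to 15 weeks for behavior under 12 h of light a day. The age of the sequenced mice, the hour at which their tissue was taken and whether replicates 1 and 2 were separate animals are not given in the sources used here, so the p-values below measure the spread between these samples, which may be technical.

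The circadian clock of mammalian cells is a feedback loop of transcription. CLOCK, or its relative NPAS2, pairs with BMAL1 (the product of Arntl) on E-box sequences and switches on the Per and Cry genes, whose proteins return to the nucleus and block that pair. In a second loop, the same pair switches on Nr1d1 and Nr1d2, which encode the nuclear receptors REV-ERBα and REV-ERBβ and repress Arntl. The loop runs in hippocampal cells as well as in the suprachiasmatic nucleus, the central pacemaker, and because its genes cycle, their RNA levels depend on the hour of collection. LSD1 phosphorylated by PKCα is known to bind the CLOCK and BMAL1 pair, which is why the RNA of these genes in the KI is of interest. The study also cites earlier work in which Lsd1 KI mice had changed daily locomotor rhythms and weaker cycling of core clock gene expression. The strength of a rhythm cannot be read from the samples used here, whose hour is not given.

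Expression was deposited as RPKM, a read count scaled by exon length and by the mapped reads of the sample, with each sample scaled on its own. The values step in whole reads, from which about 8830000 mapped reads were worked out for WT replicate 2 and between 13420000 and 14950000 for the other samples. The 10 clock genes rested on about 96 reads (Cry1 in WT replicate 2) to 4469 reads (Nr1d1 in KI replicate 2) per sample, which gives a counting error of 10.2% (Cry1) to 1.5% (Nr1d1) of a value, leaving out any variation between samples. Groups were compared with limma on log2(RPKM + 1) over the 18436 genes that reached 0.5 RPKM in 2 or more samples, all 10 clock genes among them. Kdm1a itself was at 11.6 and 11.2 RPKM in WT and at 11 and 11.2 RPKM in KI, which checks its level but not the point mutation. Prkca, which encodes PKCα, was at 44.0 and 40.9 RPKM in WT and at 48.6 and 42.1 RPKM in KI.

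Markers of hippocampal neurons were present throughout. Neurod6, a pyramidal neuron gene, was between 114 and 129 RPKM in all samples and Fibcd1, a CA1 marker, between 33.5 and 34.9 RPKM. Of 5 markers of the suprachiasmatic nucleus, 4 were at or near 0. Avp was at 0 RPKM in both WT samples and at about 1 read in each KI sample, Nms was seen as about 1 read in 1 sample, and Prok2 and Lhx1 had at most 4 and 6 reads. The exception was Vip, which cortical and hippocampal interneurons also express, at 8.49 and 8.23 RPKM in WT and at 11.5 and 9.59 RPKM in KI (adjusted p 0.490 in limma). Some markers of neighboring structures differed between samples. The summed level of 5 choroid plexus markers was 60.3 RPKM in KI replicate 1 against 14.0 to 19.8 RPKM in the other samples. Ttr made up 51.3 RPKM of the highest sum, while Kl was above WT in both KI samples, at 4.87 and 5.14 RPKM in WT and at 7.05 and 6.72 RPKM in KI. The summed level of 5 neocortex markers was 47.2 and 50 RPKM in WT against 54.8 and 52.9 RPKM in KI. That of 5 thalamus markers was 19.0 and 15.8 RPKM in WT against 29.2 and 21.1 RPKM in KI. The thalamus markers were not uniform. Prkcd and Zic1 were above WT in both KI samples (24.0% of all tested genes). Tcf7l2 and Lef1, at no more than 0.69 RPKM, were below WT in both (18.1% of all tested genes), and Slc17a6 overlapped.

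Measured as RPKM, which is per length and so can be set side by side between genes, the clock genes spanned a range from Nr1d1 at a mean of 95.3 over the 4 samples to Cry1 at 3.38. Cry2 came next to Nr1d1 at 21.8, followed by Nr1d2 at 16.9, Per1 at 15.5, Arntl at 14.6, Per2 at 8.37, Clock at 7.03, Npas2 at 6.95 and Per3 at 6.02. In that order the sample ranges of neighbors overlapped from Nr1d2 to Per1 and from Per1 to Arntl, and again from Clock to Npas2 and from Npas2 to Per3. Nr1d1, Cry2, Per2 and Cry1 each had a range that touched neither neighbor. The ranking thus placed 1 cryptochrome near the top and the other at the bottom, with Cry2 well above Cry1 in every sample.

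**Figure D1:**
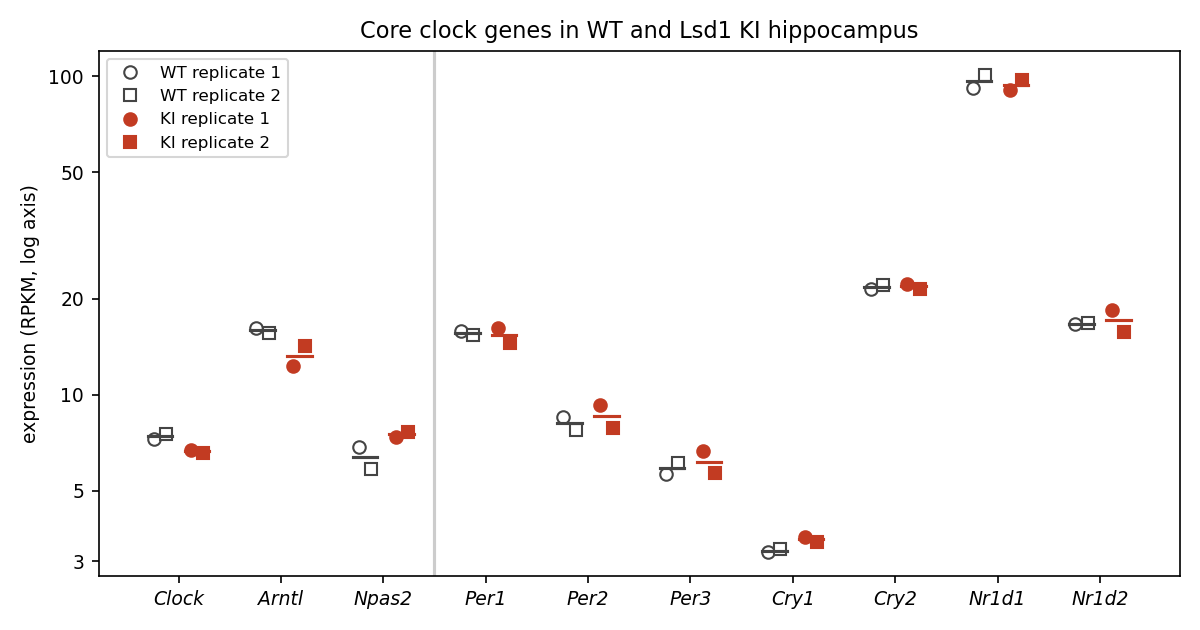
Expression of the 10 core clock genes in each sample, in RPKM on a logarithmic axis, with activators left of the grey line and repressors right of it. Open symbols are WT, filled symbols KI, circles replicate 1, squares replicate 2, and short bars the group means. Both KI samples lie below both WT samples for Clock and Arntl and above them for Npas2 and Cry1, while the other 6 genes overlap.

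None of the 10 clock genes passed the limma thresholds between KI and WT, set at an adjusted p under 0.1 together with a 1.2-fold difference. The count was 0 of 10, against 0.0% of all tested genes, so it could only be 0. The study did call genes between these genotypes, with edgeR at 1.5-fold, a different test and threshold. The 0.0% here therefore describes this limma test and not an absence of genotype differences. At an unadjusted limma p under 0.05 the count was 1 of 10 (Arntl, lower in KI), against 9.62% of tested genes in either direction, 3.33% lower and 6.3% higher in KI. The groups did not overlap in 4 of the 10 genes, against 42.1% of all tested genes. For 2 genes, Npas2 and Cry1, the lower KI value exceeded the higher WT value, against 24.0% of all tested genes. For another 2, Clock and Arntl, the order was the opposite, against 18.1% of all tested genes. These shares are of the size of the background. The median log2 fold change of the 10 genes was 0.02, beside 0.01 over all tested genes. The 95% limma interval of the difference stayed inside 1.5-fold in either direction for all 10 genes, as it did for 90.8% of the 11246 tested genes whose mean level fell in the same range. With 2 samples against 2, an exact permutation test cannot give a p under 0.333.

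The activators differed most among the members, and not all in the same direction. Arntl (ENSMUSG00000055116, chromosome 7, 113207465 to 113314126 in GRCm38) encodes BMAL1, the partner without which the loop stops. It was at 16.2 and 15.7 RPKM in WT replicates 1 and 2, and at 12.3 and 14.2 RPKM in KI replicates 1 and 2. Both KI samples were thus below both WT samples, and KI replicate 1 was the lowest. The WT mean was 16.0 ± 0.40 RPKM and the KI mean 13.3 ± 1.35 RPKM (SD over 2 samples), a ratio of 0.832. On the log2(RPKM + 1) scale the difference was -0.25 (standard error 0.08, 95% interval -0.47 to -0.03), with an adjusted p of 0.490 from limma. Leaving out KI replicate 1 reduced the log2 fold change of Arntl to -0.15, and leaving out KI replicate 2 brought it to -0.35.

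Clock (ENSMUSG00000029238, chromosome 5, 76209868 to 76304792) encodes the usual DNA-binding partner of BMAL1. Its level was 7.28 and 7.54 RPKM in WT and 6.72 and 6.57 RPKM in KI. The KI values were close to each other and below both WT values, at a ratio of means of 0.897. The log2 fold change of -0.14 (95% interval -0.31 to 0.03) had an adjusted p of 0.569 from limma.

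Npas2 (ENSMUSG00000026077, chromosome 1, 39193731 to 39363236), a forebrain relative of Clock whose protein can take its place beside BMAL1, went the other way. WT replicates 1 and 2 had 6.88 and 5.87 RPKM, and KI replicates 1 and 2 had 7.39 and 7.67 RPKM. Here the WT samples were further apart than the KI samples, and WT replicate 2, the sample with the fewest reads, was the lowest at about 248 reads. The ratio of means was 1.18, and the log2 fold change of 0.21 (95% interval -0.03 to 0.46) had an adjusted p of 0.547 from limma. Without WT replicate 2 the log2 fold change was 0.11.

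The Period genes, which supply the proteins that carry the cryptochromes into the nucleus, overlapped between genotypes. Per1 (ENSMUSG00000020893, chromosome 11, 69095217 to 69109960) was at 15.9 and 15.4 RPKM in WT and at 16.2 and 14.5 RPKM in KI, so that the highest and the lowest value both came from KI. Per2 (ENSMUSG00000055866, chromosome 1, 91415982 to 91459324) was at 8.51 and 7.78 RPKM in WT and at 9.32 and 7.90 RPKM in KI. For Per3 (ENSMUSG00000028957, chromosome 4, 151003652 to 151044665) the values were 5.66 and 6.12 RPKM in WT and 6.64 and 5.67 RPKM in KI. In each of the 3 genes KI replicate 1 was the highest of the 4 samples and KI replicate 2 lay below the higher WT sample. In limma the log2 fold changes of the 3 genes were -0.02, 0.07 and 0.05 (adjusted p 0.945, 0.867 and 0.901), and each changed sign when 1 KI sample was left out. Per3 is the only clock gene on the chromosome of Kdm1a, 14.4 Mb from it, and its values did not separate by genotype.

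The cryptochromes, which carry out the repression of CLOCK and BMAL1, differed little. Cry1 (ENSMUSG00000020038, chromosome 10, 85131700 to 85185064) was at 3.22 and 3.27 RPKM in WT and at 3.58 and 3.46 RPKM in KI. Both KI values were above both WT values, but the gene has the fewest reads of the 10, about 96 to 173 per sample. The KI mean was 8.53% above the WT mean, while the counting error of a single sample was 7.6% to 10.2%. Its log2 fold change 0.09 (95% interval -0.12 to 0.30), with an adjusted p of 0.756 from limma. Cry2 (ENSMUSG00000068742, chromosome 2, 92403646 to 92434043) was nearly level, at 21.5 and 22.1 RPKM in WT and at 22.3 and 21.6 RPKM in KI. Of all members it had the narrowest interval, a log2 fold change of 0.01 between -0.13 and 0.14, with an adjusted p of 0.978 from limma. The direction of that small value turned negative under quantile normalization and when sample medians were set equal.

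The REV-ERB genes, which feed back on Arntl, also overlapped. Nr1d1 (ENSMUSG00000020889, chromosome 11, 98767932 to 98775333) was at 92.2 and 101 RPKM in WT and at 90.4 and 97.2 RPKM in KI. The pair of replicates 2 was higher than the pair of replicates 1, irrespective of genotype. Its log2 fold change was -0.04 (95% interval -0.23 to 0.14), with an adjusted p of 0.880 from limma. Nr1d1 overlaps the thyroid hormone receptor gene Thra, which runs on the opposite strand, by 263 bp of exon, 8.55% of its exon length. Thra was at 192 and 203 RPKM in WT and at 177 and 198 RPKM in KI, with the 4 samples in the same order as for Nr1d1. The strand was not stated to be used in counting, so reads of both genes in the shared part cannot be told apart, and the level of Nr1d1 is uncertain to that extent. Cry2 likewise shares 295 bp of exon, 4.67% of its length, with the transcript D930015M05Rik on the opposite strand, which was at 11.6 to 13.8 RPKM. Nr1d2 (ENSMUSG00000021775, chromosome 14, 18204054 to 18239127) was at 16.7 and 16.8 RPKM in WT and at 18.5 and 15.8 RPKM in KI. The WT samples were nearly identical and the KI samples lay on either side of them. The log2 fold change of Nr1d2 was 0.03 (95% interval -0.20 to 0.26), with an adjusted p of 0.953 from limma.

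**Figure D2:**
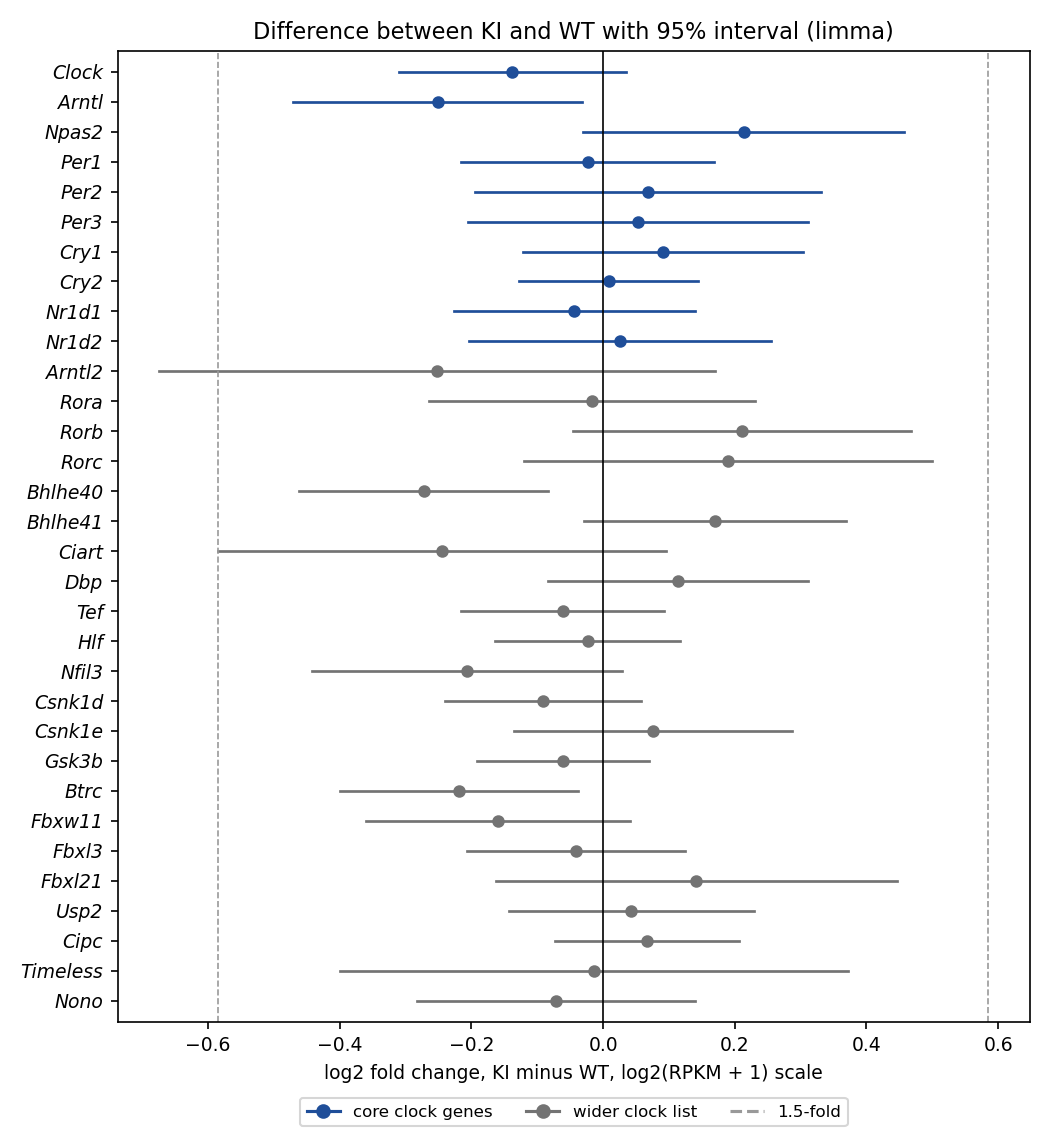
Difference between KI and WT for the 10 core clock genes (blue) and the 22 genes of the wider clock list (grey), as the limma log2 fold change on the log2(RPKM + 1) scale with its 95% interval as a line. Dashed lines mark 1.5-fold. All 10 blue intervals stay between the dashed lines, and that of Arntl is the only blue one that does not cross 0.

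**Figure D3:**
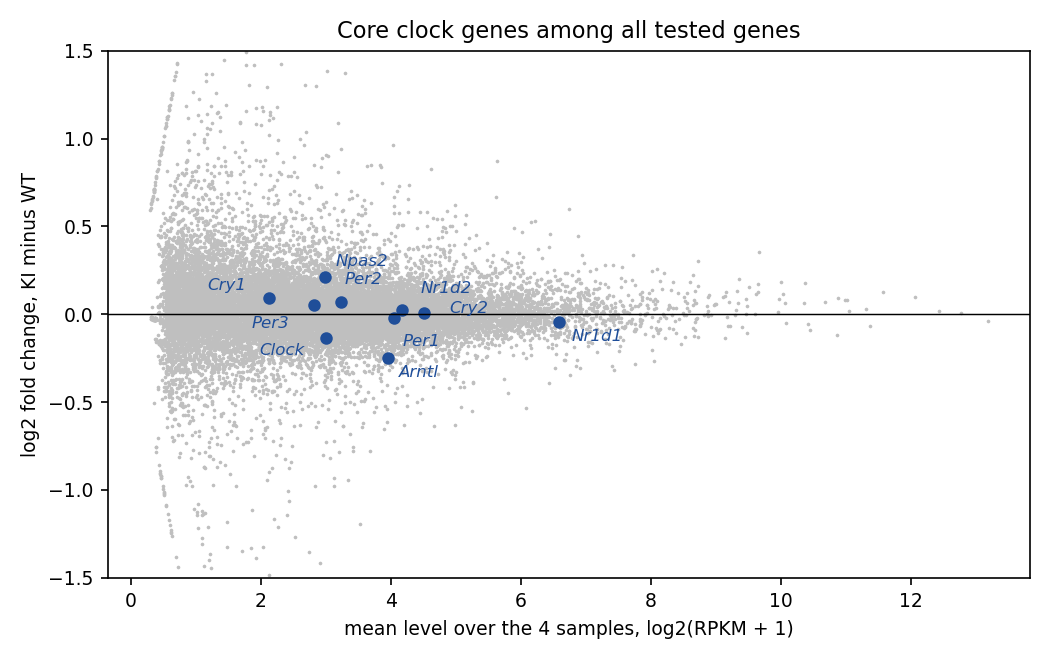
Log2 fold change between KI and WT against the mean level over the 4 samples for the 18436 tested genes (grey points, 23 of them outside the plotted range) and the 10 clock genes (blue). The clock genes lie between -0.25 (Arntl) and 0.21 (Npas2), inside the cloud of the other genes.

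The samples of a single genotype differed among themselves by up to 0.22 on the log2(RPKM + 1) scale, beside a largest difference of -0.25 between genotypes. KI replicate 1 exceeded KI replicate 2 in 6 of the 7 repressors, the exception being Nr1d1, while 47.9% of all tested genes were higher in KI replicate 1. On the log2(RPKM + 1) scale the difference between the KI replicates was 0.22 for Nr1d2, 0.21 for Per2, 0.20 for Per3 and 0.15 for Per1. Cry1 and Cry2 differed by only 0.04 each. Arntl had the opposite sign at -0.19, as did Nr1d1 at -0.10. Between the WT replicates the widest differences were 0.20 for Npas2, -0.13 for Nr1d1 and 0.11 for Per2. KI replicate 1 fell outside the range of the WT samples for 10 of the 10 genes (71.7% of all tested genes), and KI replicate 2 for 6 of them (70.1%). The hour of collection is not given, and neither its part nor that of tissue content in these differences was tested.

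The balance of both arms was described for each sample by the mean of log2(RPKM + 1) over the 7 repressors minus that over the 3 activators. The WT samples had 0.52 and 0.61, and KI replicates 1 and 2 had 0.74 and 0.56. The mean of the KI samples exceeded that of the WT samples by 0.08, less than the pooled SD within the groups of 0.10. KI replicate 2 lay between the WT samples, and without KI replicate 1 the difference was -0.005.

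**Figure D4:**
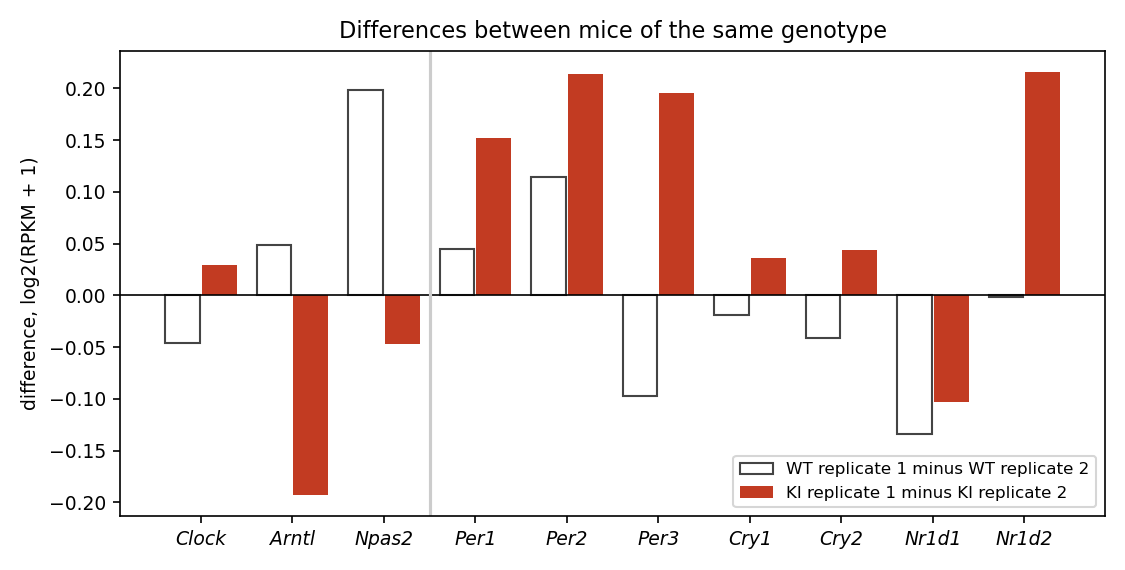
Differences between samples of the same genotype for each core clock gene, as log2(RPKM + 1) of replicate 1 minus that of replicate 2 (open bars WT, filled bars KI), with activators left of the grey line. The filled bars are positive for 6 of the 7 repressors and reach 0.22 for Nr1d2, and that of Arntl is -0.19.

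Arntl was set beside the markers of hippocampal subregions after its sample order was seen to be shared by Prox1 and Dsp. Prox1, a transcription factor of dentate granule cells, was at 17.3 and 16.9 RPKM in WT and at 10.2 and 13.1 RPKM in KI. Dsp, which encodes desmoplakin and is enriched in the same cells, was at 10 and 9.73 RPKM in WT and at 5.03 and 7.46 RPKM in KI. Arntl, Prox1 and Dsp all had their lowest value in KI replicate 1 and their second lowest in KI replicate 2, an order (WT replicate 1 highest) found in 4.39% of tested genes. Bhlhe40, Fbxw11 and Gsk3b of the wider clock list, Kdm1a and the thalamus marker Lef1 had the same order. Calb1 did not. In limma the log2 fold changes of Prox1 and Dsp were -0.52 and -0.61 (adjusted p 0.405 and 0.468). Calb1, found in granule cells and CA1, was at 24.4 and 21.8 RPKM in WT and at 15.6 and 22.6 RPKM in KI. Wfs1, a CA1 marker, was at 42.2 and 41.2 RPKM in WT and at 28.6 and 50.9 RPKM in KI, so that the KI samples stood on opposite sides of WT. Of the 8 hippocampal markers, 2 lay below WT in both KI samples, 1 above (Bok) and 5 overlapped, against 18.1% of all tested genes below and 24.0% above. Their summed level was 282 and 278 RPKM in WT and 263 and 287 RPKM in KI. In bulk RNA, fewer cells of a type and less RNA per cell cannot be told apart, and the part of dentate gyrus content in the difference of Arntl was not tested.

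**Figure D5:**
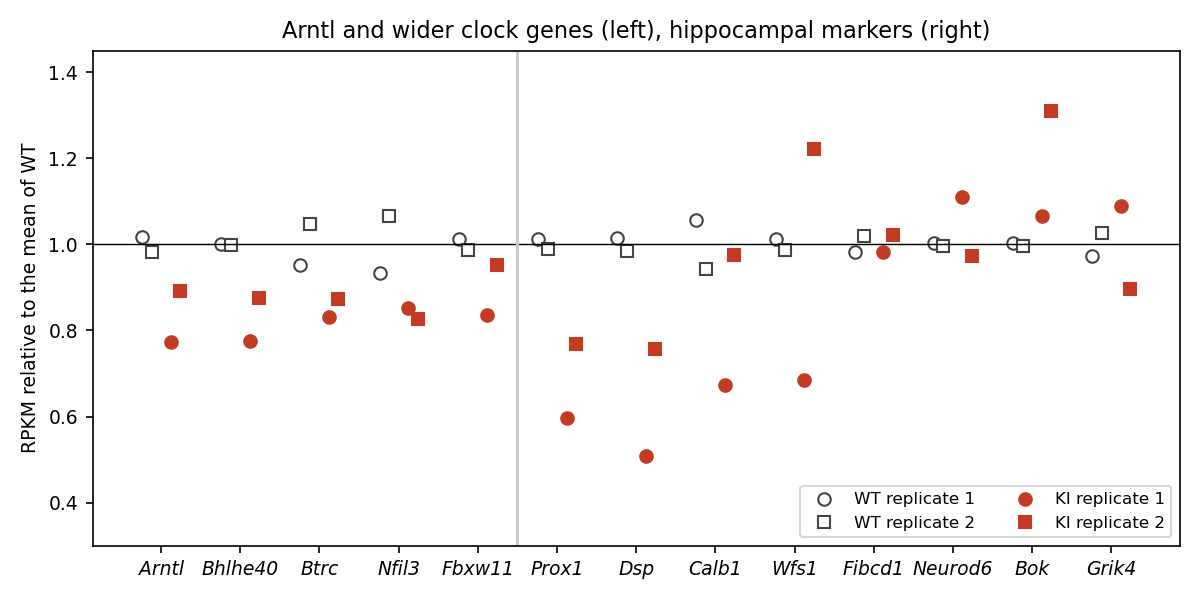
RPKM in each sample relative to the mean of the WT samples for Arntl and the 4 named genes of the wider clock list below WT in both KI samples (left of the grey line) and for the 8 hippocampal markers (right). Open symbols are WT, filled symbols KI, circles replicate 1, squares replicate 2. The 4 genes beside Arntl were chosen for lying below WT in both KI samples (18.1% of all tested genes). That part of their pattern was thus fixed by the choice. Arntl, Bhlhe40, Btrc, Fbxw11, Prox1 and Dsp have KI replicate 1 lowest and KI replicate 2 next, while Nfil3 has KI replicate 2 lowest. Btrc, with WT replicate 2 highest, does not have the full sample order of Arntl.

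The wider clock list holds 22 further genes that act on the loop or are driven by it. None of them passed the same limma thresholds (0 of 22, against 0.0% of all tested genes). As no tested gene passed, this count could only be 0. At an unadjusted limma p under 0.05 there were 2, both lower in KI (Bhlhe40 and Btrc), against 9.62% of all tested genes in either direction and 3.33% lower. Both KI values were above both WT values in 6 of the 22 and below them in 8, against 24.0% and 18.1% of all tested genes (42.1% in either direction). The median log2 fold change was -0.03. The 6 genes with the smallest p are given here with their values. Bhlhe40 encodes DEC1, a repressor that binds E-boxes, and was at 39.2 RPKM in both WT samples and at 30.4 and 34.4 RPKM in KI. Its log2 fold change was -0.27 (95% interval -0.46 to -0.08), with an adjusted p of 0.436 from limma. Bhlhe41 encodes the related DEC2 and had the opposite direction, at 5.67 and 5.48 RPKM in WT and at 6.66 and 6.14 RPKM in KI (log2 fold change 0.17). The relatives therefore differed in sign, like Clock and Npas2.

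Btrc and Fbxw11 encode the β-TrCP proteins, which mark phosphorylated PER for destruction. Btrc was at 22 and 24.3 RPKM in WT and at 19.2 and 20.2 RPKM in KI, and Fbxw11 at 38.1 and 37.1 RPKM in WT and at 31.4 and 35.8 RPKM in KI. In limma the log2 fold changes of Btrc and Fbxw11 were -0.22 and -0.16 (adjusted p 0.489 and 0.568). That of Fbxw11 was -0.07 without KI replicate 1 and -0.25 without KI replicate 2. Nfil3, a repressor that competes for D-box sequences, was at 4.71 and 5.37 RPKM in WT and at 4.29 and 4.16 RPKM in KI (log2 fold change -0.21, and -0.13 without WT replicate 2). Rorb, which encodes a nuclear receptor that opposes the REV-ERB proteins and is also a gene of cortical layer neurons, was at 1.77 and 1.90 RPKM in WT and at 2.20 and 2.36 RPKM in KI (log2 fold change 0.21). Rorb thus had the direction of the neocortex markers, of which 3 of 5 were above WT in both KI samples (24.0% of all tested genes), and the part of neighboring cortex in its values was not tested. The D-box activators Dbp, Tef and Hlf, direct outputs of the clock, had log2 fold changes of 0.11, -0.06 and -0.02. The kinases of PER, Csnk1d and Csnk1e, had -0.09 and 0.08 (limma adjusted p 0.649 and 0.793).

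Per1 is also induced by neuronal activity and by glucocorticoids, so genes of both responses were examined beside it. Of 10 immediate early genes 9 were tested and 0 passed the limma thresholds (0.0% of all tested genes). At an unadjusted limma p under 0.05 there were 2 (Arc and Npas4, higher in KI), against 6.3% of all tested genes higher and 9.62% in either direction. The KI samples were both above WT for 5 of the 9 and both below for 0, against 24.0% and 18.1% of all tested genes. Within WT, replicate 1 was above replicate 2 for all 9, against 47.3% of all tested genes. These genes thus also differed in a shared direction between samples of the same genotype. Npas4 was at 4.87 and 3.46 RPKM in WT and at 6.01 and 6.92 RPKM in KI, and Arc, a synaptic activity gene, at 61.7 and 52.3 RPKM in WT and at 70.1 and 69.8 RPKM in KI. Per1 was not above WT in both KI samples, its KI values lying on either side of WT. Among 8 glucocorticoid-induced genes 2 were above WT in both KI samples (24.0% of all tested genes) and 6 overlapped. Of the 8, 0 passed the limma thresholds (0.0% of all tested genes). The 2 above WT, Mt2 and Tsc22d3, had an unadjusted limma p under 0.05 (6.3% of all tested genes higher). Mt2, a metallothionein, was at 96.7 and 93.1 RPKM in WT and at 111 and 113 RPKM in KI, and Tsc22d3, which encodes GILZ, at 8.79 and 9.08 RPKM in WT and at 11 and 10.1 RPKM in KI. Their adjusted p were 0.353 and 0.490 in limma. Fkbp5, the usual reporter of glucocorticoid action, was at 10.1 and 9.06 RPKM in WT and at 8.29 and 9.20 RPKM in KI.

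The elements through which the loop acts were looked for in the promoters of these genes, since an E-box is where CLOCK and BMAL1 bind. RefSeq promoter windows (GRCm38.p6, short stretches around a transcript start) were matched for 9 of the 10 genes, 13 windows in all. Per2 was not matched. On both strands, the E-box CACGTG was found in Per1 and Cry1 and in 7.15% of all 32851 windows, and the D-box (TTATGTAA or TTACGTAA) in Per3 and in 1.06%. The ROR element AGGTCA, to which the ROR and REV-ERB receptors bind, was found in Clock, Arntl, Per1 and Nr1d2 and in 16.3% of all windows. The cAMP response element TGACGTCA was found in none of the 13 and in 1.79% of all windows. The matches are named by gene but the shares are per window, and Clock had 3 windows and Arntl and Per1 2 each. They are therefore not like measures. A match is a description of the letters only. The sequences are shown on the gene's strand to place these elements beside the values above, with the element in capitals. For Per1 the start meant is that of a window inside the gene (chromosome 11, 69098699 to 69098998), not the gene start given above.
Per1, E-box 166 bases before the start, chr11:69098757-69098814: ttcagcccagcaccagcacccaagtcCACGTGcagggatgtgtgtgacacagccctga
Cry1, E-box 60 bases before the start, chr10:85185083-85185140: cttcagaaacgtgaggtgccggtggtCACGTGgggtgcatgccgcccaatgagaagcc
Per3, D-box 205 bases before the start, chr4:151044837-151044896: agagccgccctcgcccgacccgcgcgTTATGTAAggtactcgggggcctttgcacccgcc
Per3, D-box 158 bases before the start, chr4:151044790-151044849: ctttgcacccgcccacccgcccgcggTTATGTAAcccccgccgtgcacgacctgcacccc
Nr1d2, ROR element 77 bases before the start, chr14:18239152-18239209: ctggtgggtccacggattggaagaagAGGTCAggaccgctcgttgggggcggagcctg
Arntl, ROR element from base 32 of the transcript, chr7:113207530-113207559: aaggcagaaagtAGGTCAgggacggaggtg

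Per1 and Cry1, the members with an E-box in these windows, had ratios of mean RPKM of 0.984 and 1.09 between KI and WT, and Per3, with a pair of D-boxes, had 1.05. The 4 members with the ROR element had ratios of 0.832 (Arntl), 0.897 (Clock), 0.984 (Per1) and 1.02 (Nr1d2). Of these 4, the groups overlapped for Per1 and Nr1d2, whose small differences changed sign when 1 KI sample was left out.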

How the data were processed

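Polyadenylated RNA from hippocampus was sequenced in read pairs from 2 WT and 2 Lsd1 KI samples. Reads were aligned to mm10 by the authors with GSNAP, which the submitters' processing notes also name, and pairs that mapped properly and to 1 place were retained. RPKM values per gene were deposited for each sample (Ensembl release 74, per the file headers). The counting tool and any use of strand are not given in the sources used here. Genes not listed in a sample were given 0. Symbols and positions were taken from GENCODE M21 (GRCm38, the build of mm10), which matched 25729 of 26328 identifiers. Mapped reads were estimated as the number that turned RPKM times exon length into whole reads (80.4% to 82.6% of low genes within 0.02 reads). They served only to state precision.

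The design assumed RPKM and limma (3.58.1, R 4.3.3, with a mean-variance trend) was used on log2(RPKM + 1), two-sided, with Benjamini-Hochberg adjustment over all 18436 genes that reached 0.5 RPKM in 2 or more samples. Such fold changes understate the change of low genes. The code was tested on simulated data. The members and lists were chosen with earlier results of these data known. The 6 genes of the wider list with the smallest limma p are named with values. Sharing of the sample order of Arntl with Prox1 and Dsp was noticed after the values were seen. Python 3.11.15, pandas 2.3.3 and matplotlib 3.10.9 served for the rest. Alternatives were another pseudocount, other filters, other scalings, no trend, the replicate block, a 1.5-fold threshold and leaving out each sample.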

Additional observations from a re-analysis of the deposited data

How the results depend on the processing

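The counts of genes past the threshold were 0 of the 10 clock genes and 0 of the 22 wider genes in every setting that kept all samples. These were no filter, at least 1 RPKM in every sample, 0.1 as pseudocount, quantile normalization, equal medians, no mean-variance trend, 1.5-fold and the replicate block. Only the fit without the trend made calls (20 among all genes). In the others no gene was called, so the counts could only be 0. With the replicate block the log2 fold change of Arntl was -0.25 with an adjusted p of 0.585 from limma. Whether same-numbered samples were paired is not stated. Their deviations had a correlation of -0.025 across 18436 genes, a single comparison that cannot decide it. The block made no call. Over the alternatives, the adjusted p of Arntl ran from 0.464 to 0.745 in limma. Cry2 changed sign with quantile normalization (-0.0040) and with equal medians (-0.0084). With 1 sample left out, log2 fold changes ran from -0.0996 to 0.0522 for Per1, -0.0385 to 0.175 for Per2, -0.0446 to 0.151 for Per3, -0.0137 to 0.0303 for Cry2, -0.111 to 0.0232 for Nr1d1 and -0.0820 to 0.134 for Nr1d2, each crossing 0 (the cause was not tested). Clock, Arntl, Npas2 and Cry1 kept their sign. This was fixed in advance, because their groups do not overlap. The clock genes whose groups did not overlap, 4 with all samples, were 6 to 10 with 1 sample left out, which is larger by construction, and the 10 came without KI replicate 2. In the wider list this count was 14 of 22 (42.1% of all tested genes), 12 with at least 1 RPKM in every sample, which left fewer genes tested, 15 with quantile normalization and with equal medians, and 16 to 20 with 1 sample left out. Counting error is largest for Cry1, at up to 10.2% of a value.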

Other observations

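Across the genome, 1282 of 11364 tested genes with a RefSeq promoter window carried the E-box CACGTG. Their median log2 fold change between KI and WT was 0.005, beside 0.010 for all 11364 genes, with quartiles at -0.06 and 0.08. Both KI samples were above both WT samples in 22.9% of the genes with an E-box and below them in 20.5%, against 24.3% and 19.1% of all genes with a window. The 1692 genes with the ROR element had a median of 0.014. These are descriptions of the letters in a short window, with no test.

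Besides Per1 and Cry1, E-boxes were found in the windows of Ciart, Bhlhe41, Tef and Cipc of the wider list, that of Ciart holding 3. Ciart, which encodes a repressor of CLOCK and BMAL1, was at 4.25 and 3.56 RPKM in WT and at 3.48 and 2.81 RPKM in KI (log2 fold change -0.24, adjusted p = 0.595 from limma). Arntl2, the paralog of Arntl, was at 3.69 and 5.31 RPKM in WT and at 3.58 and 3.55 RPKM in KI, so that WT replicate 2 alone stood apart.

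By Euclidean distance between profiles of log2(RPKM + 1) centered on their mean over the 4 samples, the genes nearest to Arntl, the member with the smallest limma p, were Gm13042 (0.017), Mir5129 (0.028) and Gm26628 (0.029). With 4 samples many genes lie close to any profile.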
